A study of Mus musculus with 9 samples.

Results

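The RUNX transcription factors and their shared partner were followed through both assays of the study. The group has 5 members, taken by mouse symbol from the 47731 genes of the RNA table: Runx1, Runx2, Runx3, Cbfb and Runx1t1. Their gene bodies hold 8 of the 9151 listed peaks of 5-hydroxymethylcytosine (5hmC), 5 in Runx1, 1 each in Runx2, Runx3 and Cbfb, and 0 in Runx1t1. The cells were mouse macrophages at passage 0 per the labels, of Tet2 knockout (KO) or wild-type (WT) genotype, and every library of both genotypes came from cells given M-CSF, the growth factor of the macrophage lineage. RNA, depleted of ribosomal RNA, was sequenced in 2 KO and 3 WT libraries, and DNA enriched for biotin-tagged 5hmC in 2 KO and 2 WT libraries. The labels give neither the kind of Tet2 allele nor the tissue or number of animals, so every p-value here speaks of the spread among the libraries, part of which may be technical. TET2 oxidises 5-methylcytosine to 5hmC, and the title of the series links it to RUNX1 in osteoclast formation. The comparison therefore asks whether the RUNX genes themselves differ between the genotypes in RNA or in 5hmC.

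The 3 RUNX proteins bind DNA through the Runt domain, and CBF-beta, the product of Cbfb, does not touch DNA but strengthens that binding. RUNX1 is needed for definitive blood formation and acts in myeloid cells, RUNX2 is the master regulator of bone-forming osteoblasts, and RUNX3 acts in T and NK cells and in sensory neurons. Runx1t1 encodes a corepressor of the ETO family, known in humans as the fusion partner of RUNX1 in a form of acute myeloid leukaemia. The RUNX genes are transcribed from a distal and a proximal start, and the short core of the RUNX binding site reads TGTGGT, or ACCACA on the other strand.

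Promoter windows were available for 4 of the 5 members, Runx1t1 having none, from RefSeq on GRCm38.p6, each running from 250 bases before a start to 50 bases from it. The distal windows of the 3 RUNX genes are printed because they share a run of letters, with each TGTGGT or TGCGGT match on either strand in capitals.
Runx1 distal, chr16:92826025-92826324, minus strand: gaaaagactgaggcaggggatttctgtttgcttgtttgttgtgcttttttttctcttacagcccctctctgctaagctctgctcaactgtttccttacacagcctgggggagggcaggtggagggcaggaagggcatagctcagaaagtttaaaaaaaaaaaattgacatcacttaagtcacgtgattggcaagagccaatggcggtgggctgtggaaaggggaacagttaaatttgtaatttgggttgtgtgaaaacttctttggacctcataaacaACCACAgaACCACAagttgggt
Runx2 distal, chr17:44814578-44814877, minus strand: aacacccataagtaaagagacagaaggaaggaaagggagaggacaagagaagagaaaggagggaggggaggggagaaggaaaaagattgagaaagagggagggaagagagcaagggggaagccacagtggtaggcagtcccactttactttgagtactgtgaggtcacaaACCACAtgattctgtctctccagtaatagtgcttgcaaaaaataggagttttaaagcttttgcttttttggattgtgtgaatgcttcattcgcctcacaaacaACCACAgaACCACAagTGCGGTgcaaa
Runx3 distal, chr4:135120395-135120694, plus strand: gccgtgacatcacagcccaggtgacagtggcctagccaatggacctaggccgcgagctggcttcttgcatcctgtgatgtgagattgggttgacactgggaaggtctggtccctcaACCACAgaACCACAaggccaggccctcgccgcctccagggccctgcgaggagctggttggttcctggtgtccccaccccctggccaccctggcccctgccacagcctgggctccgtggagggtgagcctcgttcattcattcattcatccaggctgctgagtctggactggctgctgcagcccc
The longest run common to all 3 windows is 18 bases long and holds the core site 2 times, on the strand opposite to the gene.
Run common to the 3 distal windows: caACCACAgaACCACAag
It lies at bases 27 to 44 from the start in Runx1, at 22 to 39 in Runx2 and at -136 to -119 in Runx3, counting the start as 1 and the base before it as -1. Between Runx1 and Runx2 the shared run extends to 22 bases, aaacaACCACAgaACCACAagt. Of 32851 promoter windows in the table, 4 held the 18-base run on either strand, those of Runx1, Runx2, Runx3 and Gm16225, a long non-coding RNA whose body ends 269 bases before Runx3. TGTGGT occurred on either strand in 16.8% of all windows and at 2 or more places in 1.8%, against 2, 3 and 2 places in the distal windows of Runx1, Runx2 and Runx3. TGCGGT occurred in 6.5% of all windows and at 1 place among the 3 distal ones, in Runx2. A match describes letters and does not show binding.

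The proximal windows, available for Runx1 and Runx3 but not for Runx2, differ from these in their content of CpG. That is the dinucleotide in which most 5hmC of mammalian DNA lies. The Runx1 proximal window is printed with each CpG in capitals.
Runx1 proximal, chr16:92697280-92697579, minus strand: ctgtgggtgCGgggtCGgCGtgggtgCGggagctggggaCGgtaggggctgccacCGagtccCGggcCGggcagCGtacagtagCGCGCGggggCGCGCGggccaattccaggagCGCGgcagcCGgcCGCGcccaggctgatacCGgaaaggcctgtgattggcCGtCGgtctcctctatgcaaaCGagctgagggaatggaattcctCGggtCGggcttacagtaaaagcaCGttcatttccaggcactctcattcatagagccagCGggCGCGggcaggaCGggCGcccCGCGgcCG
It holds 35 CpG and no TGTGGT or TGCGGT, and the Runx3 proximal window 45 CpG and none. The Cbfb window holds 30 CpG and none. The distal windows hold 2 CpG in Runx1, 2 in Runx2 and 8 in Runx3, where the median over all windows is 7. None of the 8 listed 5hmC peaks overlapped any of these 6 windows.

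Several features of the libraries bear on the values below. The RNA libraries held 16053426 and 25479447 counts in genes in KO and 17569441, 51355576 and 56394358 in WT. Tet2 itself did not fall in whole-gene counts, at 232 and 126 CPM (counts per 1000000 gene counts of a library) where the label is KO and 86.2, 144 and 41.6 CPM where it is WT (edgeR adjusted p = 0.520). By Tet2 RNA alone every direction here therefore rests on the labels. The knock-in feature ENSMUSGKI000000001 took 1452 and 2245 counts under the KO label and 0 in each of the 3 WT libraries. In RNA this feature followed the labels, whereas ENSMUSGKI000000002, with 1 and 3 counts in KO and 0, 6 and 3 in WT, did not. The 10 macrophage markers examined were found in every RNA library, with a summed level of 18080 and 20730 CPM in KO and 14840 to 18380 CPM in WT. Lyz2 was the largest part of each sum, and single markers went different ways. Adgre1 had 7243 and 5904 CPM in KO and 1321, 3085 and 805 CPM in WT. Itgam, Cd14 and Fcgr1 were likewise higher in both KO libraries than in any WT library. Cd68, Mertk and Mrc1 were lower in both, and Csf1r, Lyz2 and Cx3cr1 overlapped. WT replicate 3 stood apart: its 14 osteoblast and stromal markers summed to 6011 CPM, against 15.3 and 5.69 CPM in KO and 3.02 and 3.23 CPM in the other WT libraries, and 12 of the 14 were there at least 10 times their highest level elsewhere. The 7 dendritic cell markers summed to 19.9 and 11.5 CPM in KO and 230, 176 and 72.7 CPM in WT. Nearly all of the WT sum was Itgax, an integrin gene that macrophages express too, with 2.87 and 3.81 CPM in KO and 226, 172 and 70.5 CPM in WT. Batf3, a dendritic cell factor gene, went the other way, with 14.7 and 5.46 CPM in KO and 2.16, 3.29 and 0.993 CPM in WT, and the other 5 had at most 1.03 CPM in any library. Each RNA result of a member is given with and without WT replicate 3. In bulk libraries fewer cells of a type and less RNA per cell cannot be told apart.

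In RNA, no member of the group passed the test between the genotypes. Runx2 was higher in every KO library than in any WT library, Runx1 and Cbfb lay in overlapping ranges, and Runx3 and Runx1t1 were highest in WT replicate 3. Of the 5 members 0 passed an adjusted p of 0.05 in edgeR or limma-voom, 0 of 4 passed in DESeq2, which gave no p for Runx1t1, and 0 had an unadjusted edgeR p under 0.05. Of all 14851 tested genes 0.0135% passed in edgeR and 8.15% in DESeq2, so 0 of 5 is near the background. The groups did not overlap for 1 of the 5 members, against 36.2% of all genes.

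**Figure D1:**
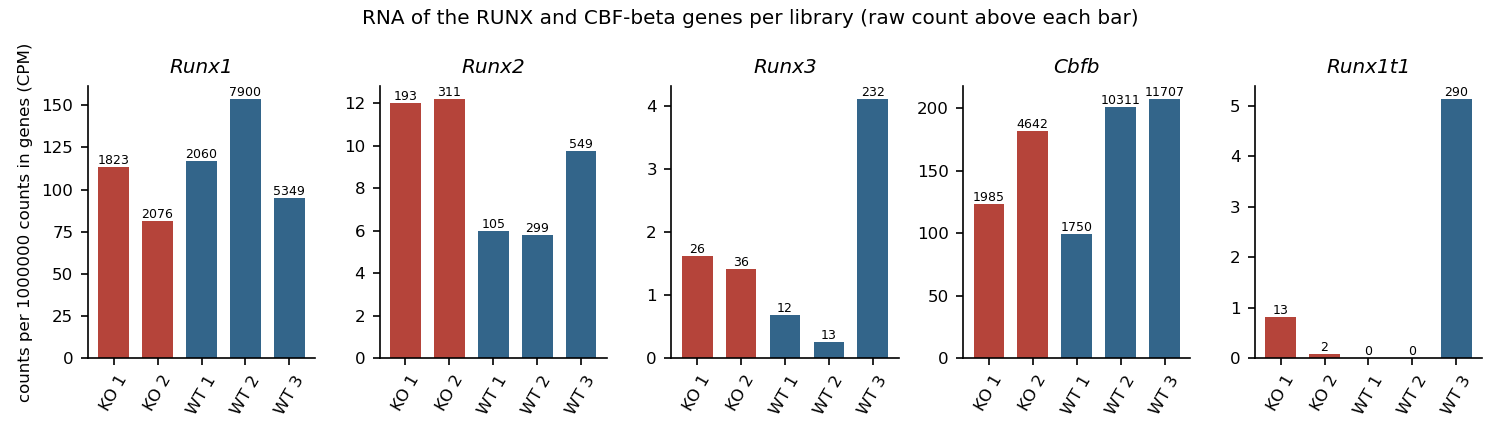
RNA level of the 5 members in each library, in counts per 1000000 counts in genes on linear axes from 0, with the raw count above each bar and KO libraries in red and WT libraries in blue. Runx2 reached 12.0 and 12.2 CPM in KO against at most 9.74 CPM in WT, whereas Runx3 and Runx1t1 were highest in WT replicate 3.

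Runx1 (ENSMUSG00000022952; GRCm38 chromosome 16, 92601466 to 92826074) had 1823 and 2076 counts in KO and 2060, 7900 and 5349 counts in WT. On the CPM scale these were 114 and 81.5 in KO against 117, 154 and 94.9 in WT. The groups overlapped, because WT replicate 3 lay between the KO libraries, while WT replicates 1 and 2 lay above both. Scaled by TMM, Runx1 averaged 95.2 ± 22.8 normalised CPM in KO (SD, n = 2) and 125 ± 31.0 in WT (SD, n = 3), a fitted log2 difference of -0.40 ± 0.31 (SE; edgeR quasi-likelihood adjusted p = 0.602). The 95% interval of the fold ran from 0.447 to 1.29, so a loss to under 0.447 of the WT level or a gain past 1.29-fold lay outside it. Without WT replicate 3 the log2 difference was -0.59 ± 0.25 (edgeR adjusted p = 0.313). Megakaryocyte markers, a lineage in which RUNX1 also acts, summed to 47.1 and 39.5 CPM in KO and 209, 85.9 and 212 CPM in WT. Most of each sum was Vwf, which endothelium expresses too, and the chemokine gene Pf4, while Gp1ba had at most 0.114 CPM in any library. The part of these markers in the Runx1 values was not tested.

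Cbfb (ENSMUSG00000031885; chromosome 8, 105170674 to 105217989), the obligate partner of all RUNX proteins, had 124 and 182 CPM in KO and 99.6, 201 and 208 CPM in WT. The KO libraries lay inside the WT range. The fitted log2 difference was -0.18 ± 0.32 (SE; edgeR adjusted p = 0.840), with a 95% interval of 0.511 to 1.53-fold. It was -0.05 ± 0.33 without WT replicate 3 (edgeR unadjusted p = 0.876) and 0.07 ± 0.43 without KO replicate 1, where its sign turned (edgeR adjusted p = 0.997). Cell cycle markers, which summed to 1249 and 2578 CPM in KO and 344, 3165 and 2204 CPM in WT, were likewise lowest in WT replicate 1 and next in KO replicate 1. Their part in the Cbfb values was not tested.

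Runx2 (ENSMUSG00000039153; chromosome 17, 44495987 to 44814797) was the only member without overlap between the genotypes. It had 193 and 311 counts in KO and 105, 299 and 549 in WT, or 12.0 and 12.2 CPM in KO against 5.98, 5.82 and 9.74 CPM in WT. Both KO libraries lay above all 3 WT libraries, and 17.2% of all tested genes had this order. Runx2 averaged 11.8 ± 0.0385 normalised CPM in KO (SD, n = 2) and 7.28 ± 1.84 in WT (SD, n = 3), a fitted 1.62-fold difference with a 95% interval of 0.899 to 2.92 (edgeR adjusted p = 0.431, unadjusted p = 0.0905). The highest WT value was that of replicate 3, the library with 6011 CPM of osteoblast and stromal markers. Without it the fold was 1.87, with an interval of 1.05 to 3.31 (edgeR unadjusted p = 0.0381, adjusted p = 0.258), and without any other library it was between 1.44 and 1.62. In KO the osteoblast factor gene Sp7 had 0 counts in both libraries and Col1a1 7 and 4. Most of the stromal sum of the KO libraries came from Postn, a matrix protein gene, with 6.85 and 2.24 CPM in KO and 0.285, 0.428 and 54.2 CPM in WT, and from Pdgfrb, a growth factor receptor gene, with 4.86 and 1.33 CPM in KO and 0.398, 0.487 and 123 CPM in WT. Both were higher in the KO libraries than in WT replicates 1 and 2, as Runx2 was, and the part of stromal cells in the Runx2 values was not tested.

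Reads of neighbouring genes could add to the Runx2 count, since no strand setting is given in the sources used here. Supt3, a transcription cofactor gene, overlaps the 5′ end of Runx2 and had 111 and 180 counts in KO and 93, 325 and 189 in WT. The non-coding gene Runx2os3, inside the Runx2 body, had 0 counts in every library, Runx2os1 had 8 and 12 counts in KO and 7, 18 and 36 in WT, and Runx2os2 had at most 13. Supt3 and Runx2os1 were tested and did not pass (log2 0.40 and 0.01, edgeR adjusted p = 0.706 and 0.997). Inside Cbfb lies Gm22063, a small nuclear RNA gene, with 11 and 10 counts in KO and 10, 33 and 2 in WT (edgeR adjusted p = 0.935). The nearest measured coding genes beside the members were tested too: Clic5 and Clic4, chloride channel family genes next to Runx2 and Runx3, and D230025D16Rik next to Cbfb had log2 differences of 0.99, -0.25 and -0.28, and none passed (edgeR adjusted p = 0.509 to 0.819).

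Runx3 (ENSMUSG00000070691; chromosome 4, 135120645 to 135177990) was detected at low level, with 26 and 36 counts in KO and 12, 13 and 232 counts in WT. These were 1.62 and 1.41 CPM in KO and 0.683, 0.253 and 4.11 CPM in WT. The KO libraries lay above WT replicates 1 and 2 and below WT replicate 3. The fitted log2 difference was -0.17 ± 1.14 (SE; edgeR adjusted p = 0.960). It turned to 1.60 ± 0.76 without WT replicate 3, a fitted 3.02-fold difference that did not pass either (edgeR adjusted p = 0.357). The T and NK cell markers Cd3e and Cd8a were at 0 counts in every library, and Cd3g, Cd3d and Ncr1 had at most 2. Gzmb, a cytotoxic granule protease gene, had 84 counts in WT replicate 3 and 0 in the other 4 libraries. The 10 T and NK markers summed to 1.81 and 5.61 CPM in KO and to 31.7, 6.48 and 9.93 CPM in WT, most of it Cd4.

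Runx1t1 (ENSMUSG00000006586; chromosome 4, 13742628 to 13895056) had 13 and 2 counts in KO and 0, 0 and 290 counts in WT. The 290 counts of WT replicate 3 were 5.14 CPM, and the 13 counts of KO replicate 1 were 0.810 CPM. A count of 0 allows up to 0.171 CPM in WT replicate 1 and 0.0584 CPM in WT replicate 2, taking 3 counts as the limit, for counting error only. One library therefore held most of the counts of the gene, the same library that held the stromal markers. KO replicate 1, second for Runx1t1, was also second for the summed stromal markers, and their part in the Runx1t1 counts was not tested. The fitted log2 difference of -1.97 ± 2.58 (SE; edgeR adjusted p = 0.764) rests on that library, and without it Runx1t1 failed the filter on low counts.

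**Figure D2:**
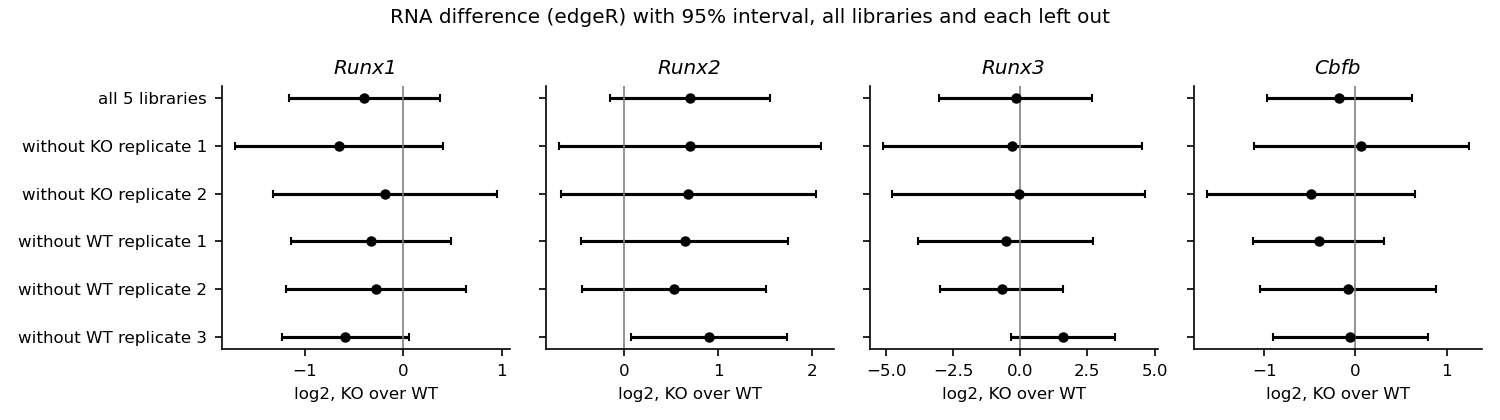
Fitted RNA difference between KO and WT on the log2 scale for the 4 members tested in every fit, with its 95% interval, for all 5 libraries and with each library left out. Leaving out WT replicate 3 moved Runx3 to 1.60 and Runx2 to 0.90, and the Runx1 value stayed below 0 in each fit shown.

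Comparing the RUNX genes within a library removes the scaling between libraries. Longer transcripts give more counts, so these are shares of counts and not of molecules. Runx1 made up 89.3% and 85.7% of the counts of the 3 RUNX genes in KO and 94.6%, 96.2% and 87.3% in WT. Runx2 made up 9.45% and 12.8% in KO and 4.82%, 3.64% and 8.96% in WT. Both KO shares of Runx2 lay above those of all WT libraries, but the exact 95% binomial intervals of KO replicate 1 (8.22% to 10.8%) and WT replicate 3 (8.25% to 9.70%) overlapped. For every 100 Runx1 counts there were 10.6 and 15.0 Runx2 counts in KO and 5.10, 3.78 and 10.3 in WT. With 2 libraries against 3, an exact two-sided permutation test cannot go below 0.1 over its 10 splits, so no such ratio could pass the threshold. Its p of 0.2 here (0.5 adjusted over the 5 ratios compared) therefore decides nothing. Runx3 made up 1.27% and 1.49% in KO and 0.551%, 0.158% and 3.78% in WT. Cbfb had 97.2 and 192 counts per 100 RUNX counts in KO and 80.4, 126 and 191 in WT, so the KO libraries differed from each other about as much as the WT libraries did.

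**Figure D3:**
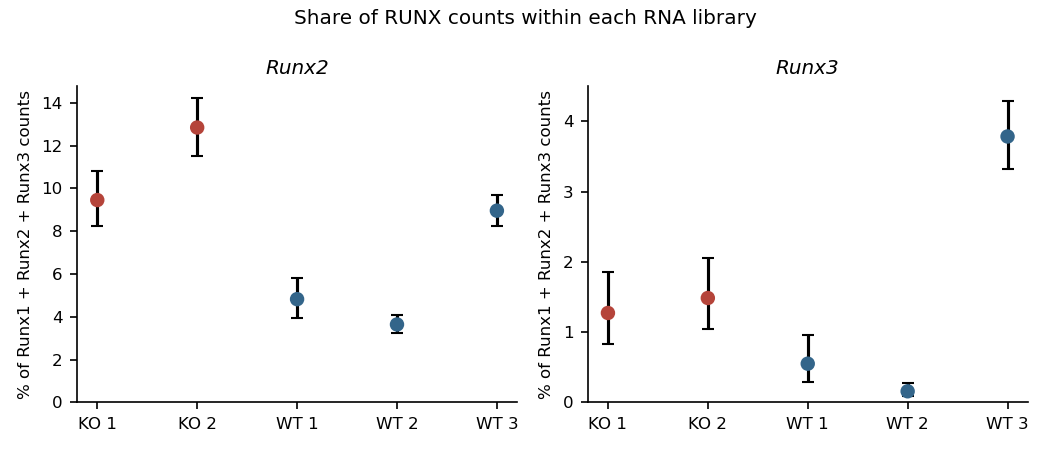
Share of the counts of Runx1, Runx2 and Runx3 that fell in Runx2 and in Runx3 in each RNA library, in percent, with exact 95% binomial intervals for counting error only. WT replicate 3 reached 8.96% for Runx2, close to the 9.45% of KO replicate 1, and 3.78% for Runx3, above all other libraries.

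The genes whose profile over the 5 libraries was closest to each member were found from the root mean square difference of log2 normalised CPM, centred per gene, among about 9590 named genes. For Runx1 these were Tatdn3, Dram1 and Iqce, at 0.04, 0.06 and 0.07 log2 units, and 533 genes lay within 0.25. For Runx2 they were Gtpbp4, Ciapin1 and Nat10, at 0.06, 0.10 and 0.10, with 313 genes within 0.25. Gtpbp4, a ribosome assembly GTPase gene, had 98.2 and 96.8 normalised CPM in KO against 63.7, 53.1 and 81.4 in WT. For Cbfb they were Gins4, a subunit gene of the replication helicase, Fh1 and Lsm4, with 754 genes within 0.25. For Runx3 they were Plk3, Ncs1 and Btbd19, at 0.19 to 0.22, and for Runx1t1 Adgra3, Nxn and Lgr4, at 0.23 to 0.24, with 4 and 3 genes within 0.25. Each of these 6 was highest in WT replicate 3, and Nxn had 4.70 and 3.31 normalised CPM in KO against 2.26, 2.39 and 30.1 in WT. With 5 points a profile is easily matched, so these likenesses are descriptions only.

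Genes that work with the RUNX proteins were described from lists of textbook partners, cofactors and targets. Of 13 tested DNA-binding partners of RUNX1 in blood cells, 0 passed in edgeR or limma-voom and 3 were lower in DESeq2, 3 had an unadjusted edgeR p under 0.05, all lower, and the median log2 difference was -0.42, against -0.03 over all genes tested. Without WT replicate 1 the list's median was -0.22. Over all 14851 genes tested 5.95% were higher and 7.86% lower at that unadjusted p, and 500 were higher and 711 lower in DESeq2. The same background holds for the lists below. Lmo2, a bridging protein of blood transcription complexes, had 48.5 and 60.8 normalised CPM in KO and 204, 120 and 154 in WT (log2 -1.54; DESeq2 adjusted p = 4.6e-04, edgeR adjusted p = 0.190). Cebpa, a myeloid lineage factor, had 14.7 and 26.7 in KO and 248, 72.7 and 112 in WT (DESeq2 adjusted p = 5.8e-04, edgeR adjusted p = 0.210). Lyl1, a basic helix-loop-helix factor, had 21.7 and 19.5 in KO and 86.4, 48.2 and 37.6 in WT (DESeq2 adjusted p = 0.0242, edgeR adjusted p = 0.244). Of the 13 partners 6 were lower and 3 higher in both KO libraries than in any WT library, where 19.0% and 17.2% of all genes were. Spi1, the gene of PU.1, was among the higher ones, at 344 and 338 in KO against 256, 254 and 188 in WT (edgeR adjusted p = 0.387).

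Coactivators, corepressors and modifiers of RUNX proteins had a median log2 difference of 0.34 over 22 tested members. Of these 16 had a fitted value above 0, among them the targeted gene Tet2 itself (log2 0.91). The median of the list was 0.14 without WT replicate 3, with 14 above 0, and 0.54 without WT replicate 2. None of the 22 passed in edgeR or limma-voom. At an unadjusted edgeR p under 0.05 there were 2 higher and 2 lower, and 1 in each direction passed in DESeq2. These were members of the Groucho family of corepressors, which RUNX proteins recruit. Tle3 had 43.3 and 31.4 normalised CPM in KO and 87.9, 84.5 and 114 in WT (log2 -1.36; DESeq2 adjusted p = 0.0017, edgeR adjusted p = 0.190). Tle4 had 147 and 115 in KO and 61.5, 77.2 and 49.1 in WT (log2 1.06; DESeq2 adjusted p = 0.0116, edgeR adjusted p = 0.226). Hdac1, a histone deacetylase gene, had 41.6 and 42.3 in KO and 26.1, 31.8 and 25.1 in WT (edgeR adjusted p = 0.317).

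Targets of RUNX1 in myeloid cells had no common direction. Of 12 tested, 0 passed in edgeR or limma-voom, 2 had an unadjusted edgeR p under 0.05, both higher, 1 passed in DESeq2, and 5 fitted values were above and 7 below 0 (median log2 -0.06). That tally rested on single libraries: 8 were above and 4 below 0 without KO replicate 1 (median 0.67) or without WT replicate 1 (median 0.65), and the median was -0.54 without KO replicate 2, -0.31 without WT replicate 2 and -0.30 without WT replicate 3. Itgal, an integrin of leukocytes, had 795 and 520 normalised CPM in KO and 13.5, 86.8 and 13.7 in WT, a fitted 17.3-fold difference (DESeq2 adjusted p = 3.1e-04, edgeR adjusted p = 0.212). Cd14, a receptor for bacterial lipopolysaccharide, had 609 and 595 in KO and 130, 307 and 303 in WT (edgeR adjusted p = 0.288). Tlr4, the receptor it serves, had 144 and 140 in KO and 236, 186 and 194 in WT (log2 -0.53; edgeR adjusted p = 0.365). Csf1r, the M-CSF receptor gene, had 1057 and 1241 in KO and 2440, 1889 and 1166 in WT, where KO replicate 2 lay above WT replicate 3 (edgeR adjusted p = 0.524). Of 18 targets of RUNX2 in bone and cartilage 7 could be tested, and 0 passed in edgeR or limma-voom, 1 higher and 1 lower having an unadjusted edgeR p under 0.05 and passing in DESeq2. Vegfa, a growth factor of blood vessels, had 5.37 and 8.83 normalised CPM in KO and 117, 38.0 and 108 in WT (DESeq2 adjusted p = 5.1e-07, edgeR adjusted p = 0.173). Mmp9, a matrix protease gene, had 755 and 634 in KO and 1.57, 68.4 and 3.39 in WT (DESeq2 adjusted p = 0.0092, edgeR adjusted p = 0.301). Col1a2, a collagen gene of bone, had 0.183 and 0.152 in KO and 0.479, 0.533 and 2237 in WT. The list's median of -1.58 rested on the stromal library: without WT replicate 3 it was 0.11 over 5 tested members. Of 12 RUNX targets of lymphoid cells 2 could be tested, Cd4 (log2 -2.58) and Zbtb7b, a factor gene of CD4 T cells (log2 0.57), and neither passed in edgeR, DESeq2 or limma-voom or had an unadjusted edgeR p under 0.05.

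**Figure D4:**
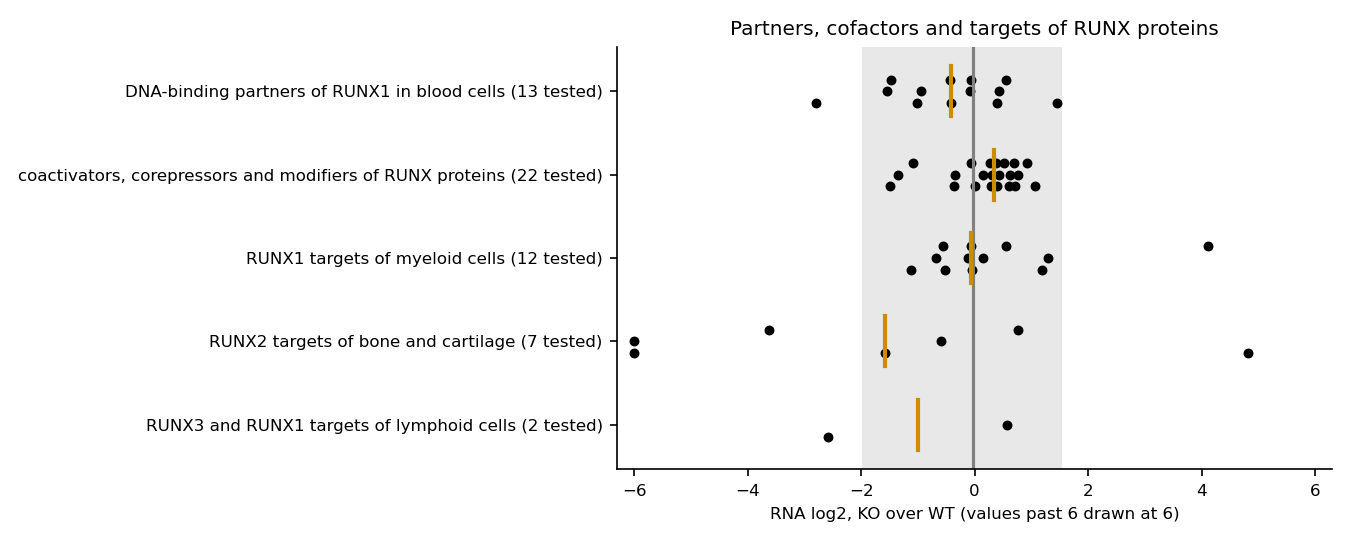
Fitted RNA log2 differences between KO and WT for the tested genes of 5 lists of RUNX partners, cofactors and targets, 1 point a gene, with the list median in orange. The grey band spans the central 90% of all tested genes (-1.96 to 1.52), and most points lie inside it.

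In 5hmC, 2 of the 4 members with a listed peak had enough counts to test, Runx1 and Runx2, and 0 of these 2 passed in edgeR, where 10.1% of 1263 tested genes did. Neither had an unadjusted p under 0.05 in edgeR's model (0.653 and 0.188), and Runx1 did not pass in DESeq2 either (adjusted p = 0.856), a fit that left Runx2 untested. One Runx1 peak had 0 counts in both KO libraries. Peak counts came to 46230 and 42489 in KO and 42678 and 219116 in WT. The KO libraries differed from each other by less than sampling noise (chi-square over its degrees of freedom 0.575 in 2544 peaks, against 1.20 between the WT libraries), so they entered as 1 sample with their mean counts. Values are given per 100000 counts in listed peaks. That total is not the sequencing depth of a library, no source used here says by which rule peaks were listed, and peak names show calls on merged libraries of each genotype, so a peak called in WT favours a lower value in KO. Over all 7044 peaks called in WT alone the median log2 ratio of KO over WT was -0.99, and over the 956 called in both it was 0.34.

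Runx1 carried 5 of the 8 peaks, or 2.23 per 100 kb of gene body. The other members with a peak had 2.11 in Cbfb, 1.74 in Runx3 and 0.314 in Runx2. Of 904 protein-coding genes of 150 to 300 kb, 54.4% had no listed peak and 4.54% had 5 or more. Summed over its peaks, Runx1 had 20 and 21 counts in KO and 21 and 158 in WT. Per 100000 peak counts this was 43.3 and 49.4 in KO against 49.2 and 72.1 in WT. Of the 4 libraries, 3 lay between 43.3 and 49.4, and WT replicate 2, the library with the most peak counts, lay above them. The exact 95% binomial intervals were 26.4 to 66.8 and 30.6 to 75.5 in KO and 30.5 to 75.2 and 61.3 to 84.3 in WT. Fitted across all tested genes, the log2 difference of Runx1 was -0.16 ± 0.34 (SE; edgeR adjusted p = 0.819), with a 95% interval of 0.562 to 1.44-fold. Scaling by total peak counts in place of TMM moved the median of all tested genes from -0.04 to -0.26 and Runx1 to -0.38, so the value of Runx1 relative to that median moved little.

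The Runx1 peaks lie between 75.9 and 191 kb downstream of the distal start, and 3 of them downstream of the proximal start too. The gene table gives no exons, so exon or intron is not stated. The peak at chromosome 16, 92750038 to 92750367, between the 2 starts, had 0 counts in both KO libraries and 3 and 18 counts in WT. A count of 0 allows up to 6.49 and 7.06 per 100000 in the KO libraries taken singly. WT had 7.03 and 8.22, at or just above that limit of 3 counts in a single KO library. By exact 95% binomial intervals a count of 0 allows up to 7.98 and 8.68 in the KO libraries. The lower WT value lies below both of these limits and the higher one between them. The KO libraries differed by less than sampling noise, so their zeros do not count as 2 separate observations. Of all peaks called in WT alone 7.58% had 0 counts in both KO libraries. The neighbouring peak at 92739971 to 92740533 had 4 and 4 counts in KO and 4 and 41 in WT, or 8.65 and 9.41 against 9.37 and 18.7 per 100000. Downstream of the proximal start, the peak at 92676457 to 92676866 had 4 and 5 counts in KO and 5 and 49 in WT, or 8.65 and 11.8 against 11.7 and 22.4 per 100000. The other 2, at 92670305 to 92670645 and 92635428 to 92635785, had 6 counts in each KO library and 6 and 22, and 3 and 28, in WT. The last of these was called in both genotypes and was the 1 Runx1 peak with both KO values, 13.0 and 14.1, above both WT values, 7.03 and 12.8. Of the 956 peaks called in both genotypes 420 had this order.

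Runx2 had 1 peak, at chromosome 17, 44702943 to 44703387, 112 kb downstream of the distal start and called in both genotypes. It had 7 and 11 counts in KO and 6 and 29 in WT, or 15.1 and 25.9 per 100000 in KO against 14.1 and 13.2 in WT. Both KO values lay above both WT values, an order found in 420 of the 956 peaks called in both genotypes. The exact 95% intervals overlapped (6.09 to 31.2 and 12.9 to 46.3 in KO, 5.16 to 30.6 and 8.86 to 19.0 in WT). The fitted log2 difference was 0.97 ± 0.73 (SE; edgeR adjusted p = 0.438), with an interval of 0.721 to 5.29-fold. Runx2 thus had the higher KO value in both assays when all libraries were used, with neither past the threshold. Whether the 2 are related was not tested. The mean 5hmC of Runx3 was higher in KO too (log2 ratio 0.38, with no test). Its RNA difference was -0.17 with all libraries and 1.60 without WT replicate 3.

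Runx3 and Cbfb failed the filter on low counts and were not tested. The Runx3 peak (chromosome 4, 135169077 to 135169456, 16.7 kb downstream of the proximal start) had 4 and 6 counts in KO and 2 and 28 in WT, or 8.65 and 14.1 against 4.69 and 12.8 per 100000. The Cbfb peak (chromosome 8, 105186399 to 105186755, 15.9 kb downstream of the start) had 2 and 1 counts in KO and 2 and 17 in WT, or 4.33 and 2.35 against 4.69 and 7.76 per 100000. The Runx3 values overlapped between genotypes and the Cbfb values did not. Among the 6 member peaks called in WT alone, the KO values were below both WT values in 2, that of Cbfb and the zero-count peak of Runx1, against 60.4% of all such peaks. None of the 8 peaks was among the 941 single peaks with enough counts to test, of which 19.6% passed in edgeR, 154 higher and 30 lower in KO. With total-count scaling in place of TMM, 102 were higher and 325 lower.

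**Figure D5:**
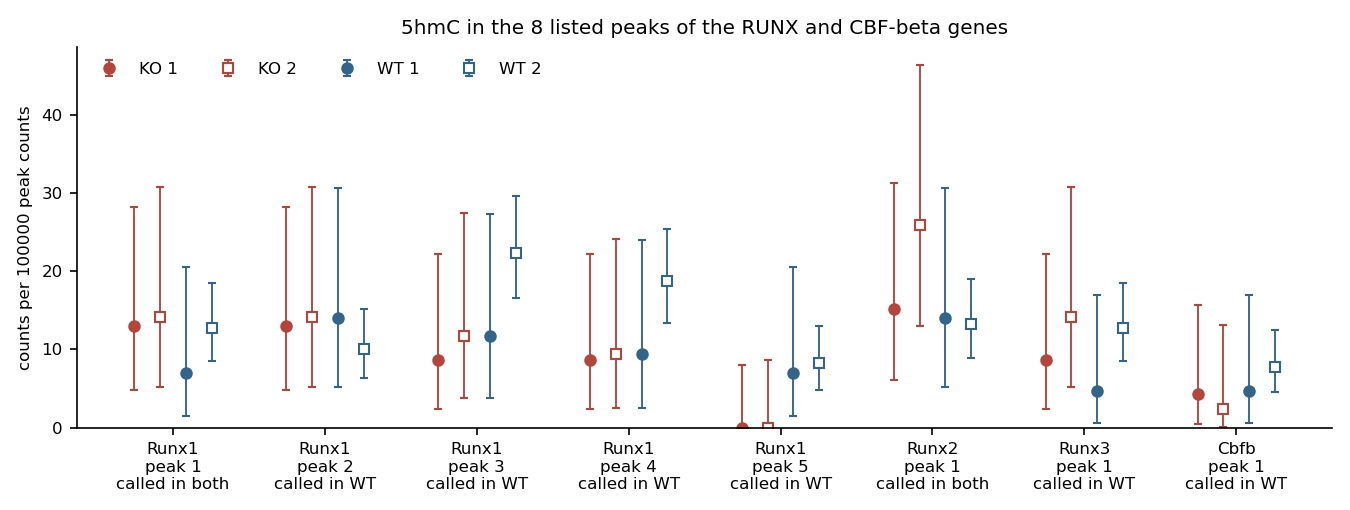
5hmC in the 8 listed peaks of the RUNX and CBF-beta genes, in counts per 100000 counts in listed peaks, for 2 KO libraries in red and 2 WT libraries in blue, with exact 95% binomial intervals for counting error only. Intervals of the genotypes overlap in each peak, and Runx1 peak 5 has 0 counts in both KO libraries.

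In the lists of partners, cofactors and targets, few genes had enough 5hmC counts to test, and 2 passed, both higher in KO. These were Fos, the 1 tested partner, and Spp1, the osteopontin gene and the 1 tested bone target. The 3 tested cofactors and the 1 tested myeloid target did not pass, and 0 lymphoid targets were tested. Of all tested genes 8.39% were called higher. The 1 peak of Fos had 15 and 17 counts in KO and 8 and 21 in WT, or 32.5 and 40.0 against 18.7 and 9.58 per 100000 (edgeR adjusted p = 0.0206). The 1 peak of Spp1 had 27 and 20 counts in KO and 5 and 9 in WT, or 58.4 and 47.1 against 11.7 and 4.11 per 100000 (edgeR adjusted p = 9.7e-07). Both peaks had been called in KO alone, which favours this direction, and neither gene passed without WT replicate 2 (edgeR adjusted p = 0.155 for Fos and 0.0971 for Spp1). In RNA neither passed: Fos had 117 and 150 normalised CPM in KO against 163, 85.9 and 54.5 in WT (edgeR adjusted p = 0.735), and Spp1 442 and 1363 in KO against 422, 1249 and 6438 in WT (edgeR adjusted p = 0.604).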

How the data were processed

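RNA values are counts per gene and 5hmC values are counts per peak, both as the authors deposited them. Per the submitters' processing notes the tools were STAR, BWA, HTSeq, MACS2, Trim Galore and CASAVA 1.4, on build GRCm38. Tool roles, annotation release, strandedness and handling of duplicates: not given in the sources used here. Groups and replicate numbers came from the sample titles. Of 47731 genes, 47224 were matched to a symbol, and gene positions and promoter sequences came from RefSeq tables of the same build. A peak belonged to each gene whose body it overlapped by at least 1 base, with counts summed per gene.

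Each assay was fitted across all its features with edgeR 4.0.16 under R 4.3.3. Low counts were removed by filterByExpr, libraries scaled by TMM, and glmQLFTest applied to glmQLFit models. Tests were two-sided, with p-values adjusted by Benjamini-Hochberg and called at 0.05. Standard errors are the log2 difference over the square root of F. The KO 5hmC libraries entered as 1 sample, so the spread came from the 2 WT libraries. Alternatives used DESeq2 1.42.0, limma-voom (limma 3.58.1), other scalings and filters, a replicate block and leaving out each library. Fitting steps were tested on simulated data. Likeness used log2(normalised CPM + 0.5) and genes of at least 5 normalised CPM.

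The members and lists were chosen with earlier results of these data known. Members, their peaks and neighbours, up to 4 called genes of a list (otherwise the 3 of smallest unadjusted p), the 3 closest profiles and Tet2 were named by rule; Csf1r, Spi1, RNA of Fos and Spp1, and the marker genes were named after their values were seen. Intervals and floors cover counting error only.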

Additional observations from a re-analysis of the deposited data

How the results depend on the processing

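The RNA values of Runx1 and Runx2 kept their direction in all 13 alternatives, between -0.65 and -0.19 and between 0.53 and 0.91 on the log2 scale, and neither passed in any. Runx3 turned to 0.60 with limma-voom, 1.74 with the replicate block and 1.60 without WT replicate 3, and ranged from -0.69 to 1.60 over the left-out libraries; Runx1t1 turned to 0.81 with limma-voom and 5.97 with the replicate block, against -4.41 to -1.03 with a library left out; Cbfb ranged from -0.49 to 0.066, above 0 only without KO replicate 1. Genes called in RNA, 2 in all, became 0 with total-count scaling or the replicate block and in each of the 5 fits without a library, 1 with limma-voom and 1211 with DESeq2. Replicate numbers share no stated source, and the deviations of same-numbered RNA libraries correlated at 0.10 and -0.07, so the block is not read as a pairing.

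In 5hmC, Runx2 stayed above 0 (0.73 to 1.28) in the 8 alternatives where it was tested, and Runx1 below 0 in 12 of 13, with 0.13 without WT replicate 2. Gene sums called, 127 in all, became 325 with the KO libraries as 2 samples, 445 summed, 238 without a filter, 216 with a total of at least 10 counts, 7 with only peaks called in both genotypes and 308 with the replicate block; leaving out a library gave 0 to 366. The 0 came without WT replicate 2 and the 366 without WT replicate 1, in fits with the KO libraries as 2 samples, chosen after seeing the data. With total-count scaling 85 gene sums were higher and 46 lower, against 106 and 21 with TMM. Peaks called, 184 in all, became 303 with the KO libraries as 2 samples (152 higher and 151 lower), 838 summed, 427 with total-count scaling (102 higher and 325 lower, against 154 and 30 with TMM), 466 without a filter, 497 with a total of at least 10 counts and 18 with only peaks called in both; leaving out a library gave 185 to 505, with 331 without WT replicate 2 and the 505 without WT replicate 1. The untested ratio of Runx3 ranged from -0.17 to 1.28 and that of Cbfb from -1.40 to -0.49 with a library left out. The cause was not tested for any of these changes, except that filters and peak subsets change which features are tested.

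The limit set by low counts is plain in 5hmC, where a member peak had 0 to 11 counts in a KO library.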

Other observations

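Outside the gene bodies, 4 listed 5hmC peaks lay within 50 kb of a member. The nearest, called in WT alone, was 2.48 kb upstream of Cbfb at chromosome 8, 105167905 to 105168194, with 4 and 5 counts in KO and 4 and 18 in WT, or 8.65 and 11.8 against 9.37 and 8.22 per 100000 peak counts. On the other side of Cbfb, 43.7 kb from its body, a peak called in both genotypes had 34.6 and 25.9 per 100000 in KO against 16.4 and 15.1 in WT. The peak 44.1 kb upstream of Runx1 had 15.1 and 14.1 in KO and 11.7 and 15.5 in WT, and the peak 19.8 kb downstream of Runx2 had 2.16 and 7.06 in KO and 2.34 and 9.13 in WT. Among the RUNX2 bone targets, the 1 peak in Col1a2 had 1 count in KO replicate 1, 17 in KO replicate 2 and 0 in both WT libraries, although the KO libraries otherwise differed by less than sampling noise.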
